A study of Mus musculus with 2 samples.

Results

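CTCF, a zinc-finger DNA-binding protein, was profiled by ChIP-seq, which sequences the DNA recovered with an antibody to a bound protein. The tissue was forebrain of B6NCrl mice at postnatal day 0. There were 2 libraries in 1 group, numbered as biological replicates. Both cite 1 biosample of powdered tissue pooled over several dissections, so differences between the replicates may be technical. There was no other genotype, treatment or age, and no sex was recorded. The sites described here are dense clusters of neighbouring CTCF summits. They were chosen by the positions of the summits in the deposited optimal list, which holds the peaks kept by a filter on the irreproducible discovery rate (IDR). A summit was a member where at least 2 other summits of that list lay on the same chromosome within 5000 bp, each more than 500 bp away. Of 56462 sites placed on chromosomes 1 to 19, X and Y, 7490 met the rule (13.3%). A further 8 sites of the list lay on unplaced contigs and were not used, 3 of which would have met the rule.

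CTCF recognises a long asymmetric motif, so each bound site has a direction on the DNA strand. Together with the cohesin complex it forms the anchors of chromatin loops: cohesin extrudes DNA until it meets CTCF, and loops form preferentially between motifs that point toward each other. Runs of neighbouring CTCF sites are known at boundaries of topological domains, at imprinting control regions, at antigen receptor loci and in the X-linked noncoding RNA gene Firre. Such runs can hold motifs that all point the same way or that face both ways.

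Sequences of 34 bases around the best match to the CTCF core consensus, which is 14 bases long, show what sits under the summits of some clusters. They are read from GRCm38 (mm10), 5′ to 3′ along the strand of the match, with the core in capitals. A site was counted as carrying the motif where the core matched with at most 2 mismatches, on either strand, within 50 bp of the summit. The cluster with most motifs on a single strand lay on chromosome 12, with summits 30187 to 38471 bp from the start of Tmem121, the gene it is named by, and 30429 bp from Igha, the immunoglobulin alpha constant gene, in the region known to hold the CTCF-binding elements at the 3′ end of the immunoglobulin heavy-chain locus. The 5 sequences shown run along the plus strand.
Igh 3′ position 1 (chr12:113216108-113216141): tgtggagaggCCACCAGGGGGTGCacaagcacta
Igh 3′ position 3 (chr12:113218076-113218109): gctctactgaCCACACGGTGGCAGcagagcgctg
Igh 3′ position 4 (chr12:113220043-113220076): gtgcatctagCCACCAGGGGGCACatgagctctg
Igh 3′ position 6 (chr12:113221398-113221431): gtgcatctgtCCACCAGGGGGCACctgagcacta
Igh 3′ position 7 (chr12:113222206-113222239): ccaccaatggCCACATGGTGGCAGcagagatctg

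The Firre gene on the X chromosome held the cluster with most members. Its sites are shown because they repeat the same flanks in 2 forms, while their best core match fell short of the motif threshold by 1 mismatch in 4 of the 5 sites shown. The last sequence belongs to the only Firre member that met the motif threshold.
Firre position 6 (chrX:50600421-50600454): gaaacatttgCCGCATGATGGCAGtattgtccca
Firre position 10 (chrX:50612376-50612409): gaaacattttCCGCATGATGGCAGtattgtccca
Firre position 1 (chrX:50590847-50590880): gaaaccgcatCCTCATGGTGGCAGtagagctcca
Firre position 12 (chrX:50617155-50617188): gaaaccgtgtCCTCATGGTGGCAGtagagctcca
Firre position 14 (chrX:50621098-50621131): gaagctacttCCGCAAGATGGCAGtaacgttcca

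Upstream of H19, the imprinted noncoding RNA gene, the 4 summits farthest from the gene start lay in the region known as the H19/Igf2 imprinting control region, where CTCF binds the maternal, unmethylated copy. All 4 had cores with 3 or 4 mismatches to the consensus, so none counted as a motif match.
H19 position 2 (chr7:142580302-142580335): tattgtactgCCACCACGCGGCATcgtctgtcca
H19 position 3 (chr7:142580754-142580787): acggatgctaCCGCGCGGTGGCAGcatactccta
H19 position 4 (chr7:142581780-142581813): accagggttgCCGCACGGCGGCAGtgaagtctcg
H19 position 5 (chr7:142582024-142582057): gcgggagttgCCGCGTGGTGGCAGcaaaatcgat

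In contrast, an intron of Ksr2, a scaffold of the Ras signalling pathway, held 5 members with at most 1 mismatch each, all on the plus strand.
Ksr2 position 1 (chr5:117502795-117502828): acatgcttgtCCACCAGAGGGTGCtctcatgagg
Ksr2 position 2 (chr5:117504614-117504647): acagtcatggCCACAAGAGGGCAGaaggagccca
Ksr2 position 3 (chr5:117505330-117505363): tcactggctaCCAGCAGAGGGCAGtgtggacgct
Ksr2 position 4 (chr5:117506551-117506584): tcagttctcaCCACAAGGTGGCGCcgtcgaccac
Ksr2 position 5 (chr5:117509718-117509751): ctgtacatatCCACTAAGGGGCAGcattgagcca

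The signal value is the peak strength the authors' caller wrote. Its scale is not given in the sources used here, and the values are used to describe and rank sites. The value of a site in the optimal list equals the one in the authors' list called on both replicates together, and each replicate has its own list with its own value. Each replicate list and the joint list held exactly 300000 peaks, and the depth of sequencing is not stated in them. Because the list was selected on signal and the members on summit positions in it, the values below describe the members and no test was run across sites. Shares carry Wilson 95% intervals, which cover counting error only; sites of 1 cluster are not independent.

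Joining members no more than 5000 bp apart gave 2929 chains. Of these, 1778 held 3 or more members and together contained 6228 of the 7490 members (83.2%). The commonest size was 3 members, with 1187 clusters, followed by 408 clusters of 4, 119 of 5 and 40 of 6. The 2 largest held 13 and 15 members. A further 1040 members stood alone in their chain, because none of their neighbours met the rule, and 111 chains held 2 members. Clusters of at least 3 members had a median span of 4105 bp. Among neighbouring members of a chain over 500 bp apart, the median distance was 1596 bp. These sizes and spans follow from the rule. At its edge, the members with the farthest admitted second neighbour lay near Gm14340 and Madcam1, at 5000 bp, with signal values of 48.1 and 24.3, and at 4999 bp near Gm47542, with 24.0 and 53.8. The nearest sites outside were 2 at S100a6, at 5004 bp with 109 and 24.9, 1 in Tns2 at 5004 bp with 26.5, and 1 in Galnt7 at 5006 bp with 268.

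Members were unevenly spread over chromosomes. They made up 17.9% of the sites on chromosome 7 (682 of 3801; 95% interval 16.8–19.2%) and 17.3% on chromosome 11 (717 of 4133; 16.2–18.5%). On chromosome 12 the share was 9.84% (221 of 2247; 8.67–11.1%). The X chromosome had the lowest share among chromosomes with more than 1 site, 6.37% (83 of 1304; 5.16–7.82%), although it carried the largest cluster. The 1 site on Y was not a member.

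The members lay closer to genes than the remaining sites. A summit within 1000 bp of a protein-coding transcription start site (TSS) was found for 23.0% of members (1723 of 7490; 22.1–24.0%) and 15.6% of the 48972 other sites (15.3–15.9%), against 16.6% over all sites. The median distance to the nearest coding TSS was 5176 bp for members and 20274 bp for the others. Members were also more often in exons (6.01% against 4.10%) and less often in introns (34.0% against 40.1%) or intergenic DNA (37.0% against 40.2%). The promoter share was 13.6% for sites with no neighbour in the 500 to 5000 bp range, 19.9% for those with 1, and between 19.8% and 26.3% for members with 2, 3, 4, or 5 or more.

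A motif match was present at 62.5% of members (4680 of 7490; 61.4–63.6%) and at 67.3% of other sites (66.8–67.7%), against 66.6% over all sites. In windows of the same size 1000 bp upstream of the summits, a match occurred at 4.69% for members and 2.64% for others. By the rule, members have other summits nearby, so such a window can fall on a neighbouring site. The upstream share was 2.27% for sites without a neighbour in the range of the rule and 3.44% for those with 1. For members grouped by number of neighbours it was between 4.37% and 6.25%. The 4.69% is therefore not a background rate, and whether neighbouring sites account for the difference was not tested. Promoter sites carried fewer motifs at the summit in both classes, so the shares at the summit were compared by location. At promoters they were 36.1% for members (33.9–38.4%) and 35.9% for others (34.9–37.0%), with overlapping intervals. In exons they were 60.0% (55.4–64.4%) and 66.1% (64.0–68.1%), and the intervals overlapped at their ends. In introns they were 70.6% (68.8–72.3%) and 72.3% (71.6–72.9%), and in intergenic DNA 71.9% (70.2–73.5%) and 74.5% (73.9–75.1%), the only location where the intervals were separate.

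**Figure D1:**
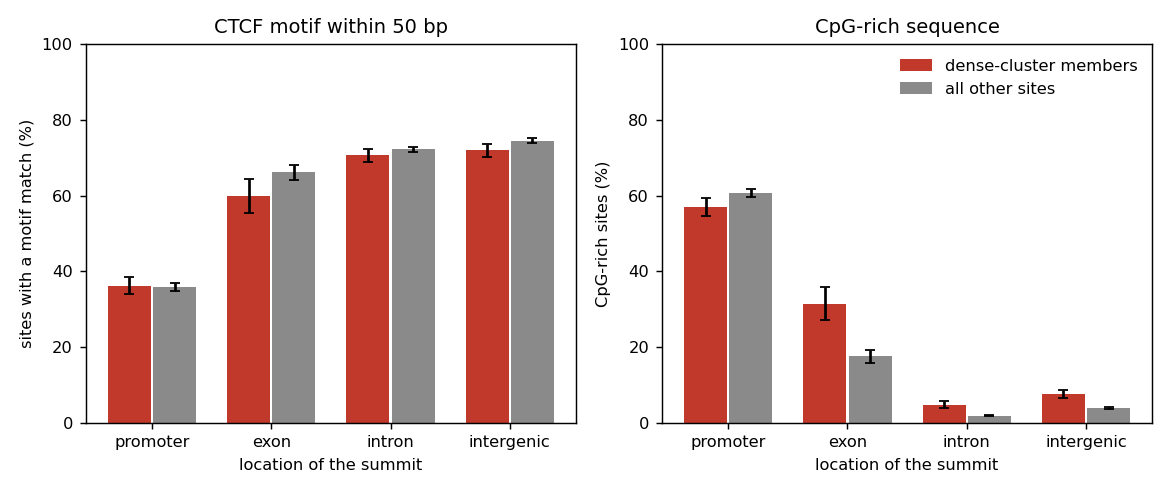
Share of sites (%) with a CTCF motif match within 50 bp of the summit (left) and with CpG-rich sequence (right), by location of the summit, for members of dense clusters (red) and all other sites (grey); error bars are Wilson 95% intervals. Motif shares at promoters were 36.1% and 35.9%, while CpG-rich sequence outside promoters was more frequent among members, for example 31.3% against 17.5% in exons.

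CpG-rich sequence, taken as at least 50% GC and an observed-to-expected CpG ratio of at least 0.6 in 201 bp, was more frequent under members outside promoters. In exons 31.3% of members (27.2–35.8%) and 17.5% of other sites (15.9–19.3%) were CpG-rich. In introns the shares were 4.79% (4.03–5.69%) and 1.88% (1.70–2.08%), and in intergenic DNA 7.51% (6.59–8.55%) and 3.78% (3.52–4.05%). At promoters the order was the opposite, with 57.0% of members (54.6–59.3%) and 60.7% of others (59.6–61.8%). Median GC content was 52.2% and 49.3%.

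Members had slightly higher signal values than the other sites, and the difference depended on location. The median was 68.3 for members, with quartiles of 33.1 and 182, and 63.8 for others, with quartiles of 32.1 and 162. In replicate 1 the medians were 37.4 and 34.7, and in replicate 2 they were 32.1 and 30.2. Intergenic members had a median of 95.5 against 76.4, whereas promoter members had 44.5 against 49.1. Among sites with a motif the medians were 111 and 91.0, and among sites without one 39.1 and 38.1. At a perfect core match, present at 9.04% of members and 9.50% of others, they were 246 and 202. The highest member value was 610.1 and the lowest 5.35.

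The commonest opening of the motif core among members, over its first 12 bases, was CCAGAAGAGGGC. It occurred at 613 of the 4680 members with a motif (13.1%; 12.2–14.1%) and at 12.2% of the other sites with a motif (11.8–12.5%). Of these members, 90.9% had a summit in sequence that the genome file marks as repetitive (lower case), compared with 16.5% of all members. This form of the core is carried by the mouse B2 family of short interspersed elements, which is known to have spread CTCF motifs through rodent genomes; repeat families were not annotated here. The members with it were weak, with a median signal value of 46.5, and other sites with it had 40.3. The next commonest form, CCAGCAGAGGGC, had medians of 191 and 127 and was found at 2.67% and 2.94% of the motif sites. The pair of sequences shown comes from the cluster next to Rpl23a, a gene of the large ribosomal subunit, where both sites lay in introns of Nek8 and had signal values of 30.7 and 39.4.
Rpl23a position 1 (chr11:78171513-78171546): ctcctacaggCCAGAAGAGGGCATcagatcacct
Rpl23a position 3 (chr11:78175893-78175926): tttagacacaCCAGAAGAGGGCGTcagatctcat

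Most clusters combined strong and weak sites. In the 1778 clusters of at least 3 members, the strongest member was a median of 6.18 times the weakest (quartiles 3.29 and 10.7), with median values of 223 and 28.3. The ratio exceeds 1 by the choice of extremes. It was at least 5 in 59.6% of clusters and under 2 in 10.5%. The strongest member carried a motif in 78.2% of clusters (76.2–80.0%) and the weakest in 45.9% (43.6–48.2%). These members were picked by signal. Signal was also higher with a motif among sites outside the clusters, with medians of 91.0 with a motif and 38.1 without. The strongest was at a promoter in 19.8% (18.0–21.7%) and the weakest in 28.1% (26.0–30.2%). A promoter member was present in 46.4% of clusters. Every member had a motif in 25.6% of them, and no member had one in 6.13%. In clusters of exactly 3, the strongest was the middle site in 32.6% (30.0–35.3%).

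The replicates ranked the members alike. Of the members, 97.7% had a summit within 150 bp in both replicate lists, compared with 98.2% of other sites. Across members, the Spearman correlation of the replicate values was 0.941, and it was 0.938 across other sites; both are descriptions over sites that share the same 2 libraries. The same member was strongest in both replicates in 1462 of the 1640 clusters where each member had both values (89.1%). After centring on the median ratio, the replicates differed by more than 2-fold at 501 of 7321 members (6.84%; 6.29–7.44%) and at 6.20% of other sites (5.99–6.42%), against 6.28% over all sites. Peaks that overlapped another optimal-list peak made up 2.78% of members and 2.29% of others.

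**Figure D2:**
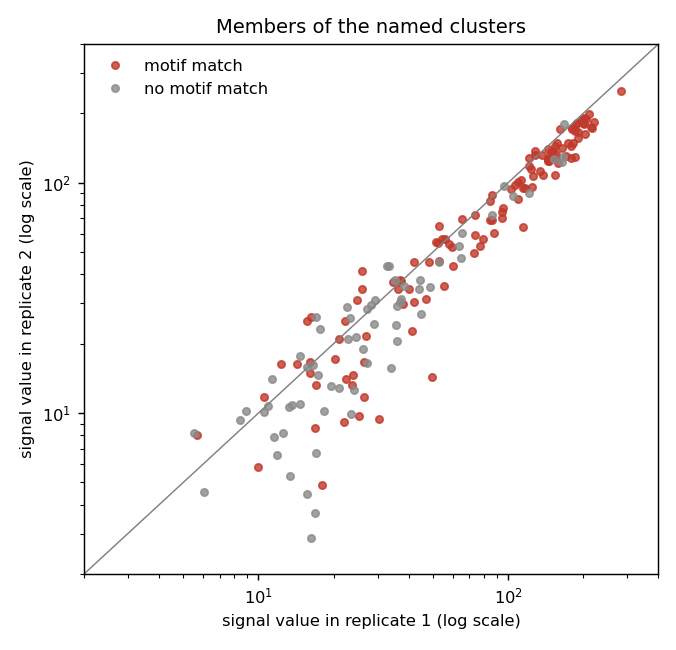
Signal value in replicate 1 (x) and replicate 2 (y), both on log scales, for the 187 of 192 members of the named clusters with a value in both; red points carry a motif match and grey points do not, and the line marks equal values. Points with high values lie close to the line, and the spread is wider at low values.

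The orientation of neighbouring motifs was compared between members and other sites. Of 1823 neighbouring member pairs over 500 bp apart with a motif at both sites, 54.5% lay on the same strand (52.2–56.7%). Among 13005 pairs of other neighbouring sites 5000 to 50000 bp apart the share was 52.7% (51.8–53.5%), and the intervals overlapped. With members defined by neighbours within 10 kb the share was 55.4% (53.7–57.0%). Among sites at or above the median signal value of the list it was 58.1% (53.7–62.3%). Both intervals lie above that of the other pairs. However, no share of other pairs was computed under either setting, so like is not set against like. Convergent pairs, whose motifs face each other, made up 20.2% of member pairs (18.5–22.1%) and 20.9% of the others (20.2–21.6%). Divergent pairs made up 25.3% (23.3–27.3%) and 26.4% (25.7–27.2%). The same-strand class joins pairs with both motifs on plus and pairs with both on minus. These made up 28.0% and 26.5% of member pairs, and 26.0% and 26.7% of the others. Across distance bins, the same-strand share of member pairs ran from 49.0% (43.0–55.1%) in the fourth of the 5 bins to 57.3% (46.5–67.5%) in the last, with overlapping intervals. In clusters with exactly 3 motif-bearing members, all 3 pointed the same way in 159 of 506 (31.4%; 27.5–35.6%). With 4 or more, this held in 22 of 160 (13.8%, interval 9.26–19.9%). No matching share was computed for runs of other sites, so these counts describe the clusters only.

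**Figure D3:**
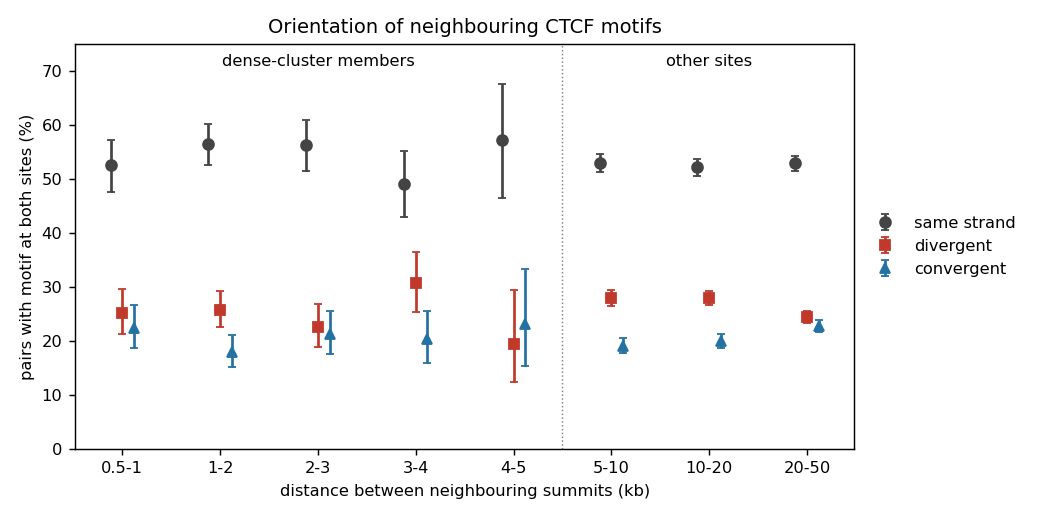
Share (%) of neighbouring site pairs with a motif at both sites that were on the same strand (grey circles), divergent (red squares) or convergent (blue triangles), by distance between summits (kb), for dense-cluster members (left of the dotted line) and other sites (right); bars are Wilson 95% intervals. The same-strand class joins both tandem arrangements (both plus and both minus), whereas divergent and convergent are a single arrangement each. Its share ran from 49.0% to 57.3% across bins.

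Neighbouring members were rarely copies of one another. With motifs aligned, the 40 bases on each side of the core were identical at a median of 26.2% of positions for member pairs and for other pairs alike, and 1.10% of member pairs (0.711–1.69%) and 1.33% of other pairs (1.15–1.54%) reached 50%. A repeated copy was defined as at least 10% of the 16-base words in the window of 50 bp on each side of a summit shared with another member of the cluster. By this measure 36 members (0.481%; 0.347–0.665%) in 13 clusters were copies, and 16 of the 36 lay on the X chromosome. Their median signal value was 58.1, and that of the remaining members was 68.3.

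At Firre, 20 of the 26 sites within 10 kb of the gene were members. Firre encodes a nuclear noncoding RNA made from an X-linked gene with local repeats. The 20 members fell into chains of 15 and 5, spanning 32452 and 11093 bp. All of them lay inside the gene. Their signal values ran from 26.1 to 100.2, with a median of 58.7 in the larger chain and 56.2 in the smaller. The strongest, position 9 of the larger chain, had 52.9 in replicate 1 and 45.4 in replicate 2. Position 7, the weakest, had 14.7 and 10.9. Only position 14, shown above, met the motif threshold, and its value of 29.3 was among the lowest. In the larger chain 10 of 15 members had a repeated copy within the chain, and 3 of 5 in the smaller. Copies shared between the chains were not counted, so these counts can understate repetition across the gene. Position 3 of the smaller chain had no copy by this measure. Its core and the 10 bases on each side were nevertheless identical to those of position 3 of the larger chain. The letters TGGCAGT, on either strand within 50 bp of the summit, were present at 16 of the 20 Firre members, at 3.28% of the other members and at 4.28% of all sites; these letters were picked after the sequences had been seen. How reads from repeated copies were placed is not given in the sources used here.

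**Figure D4:**
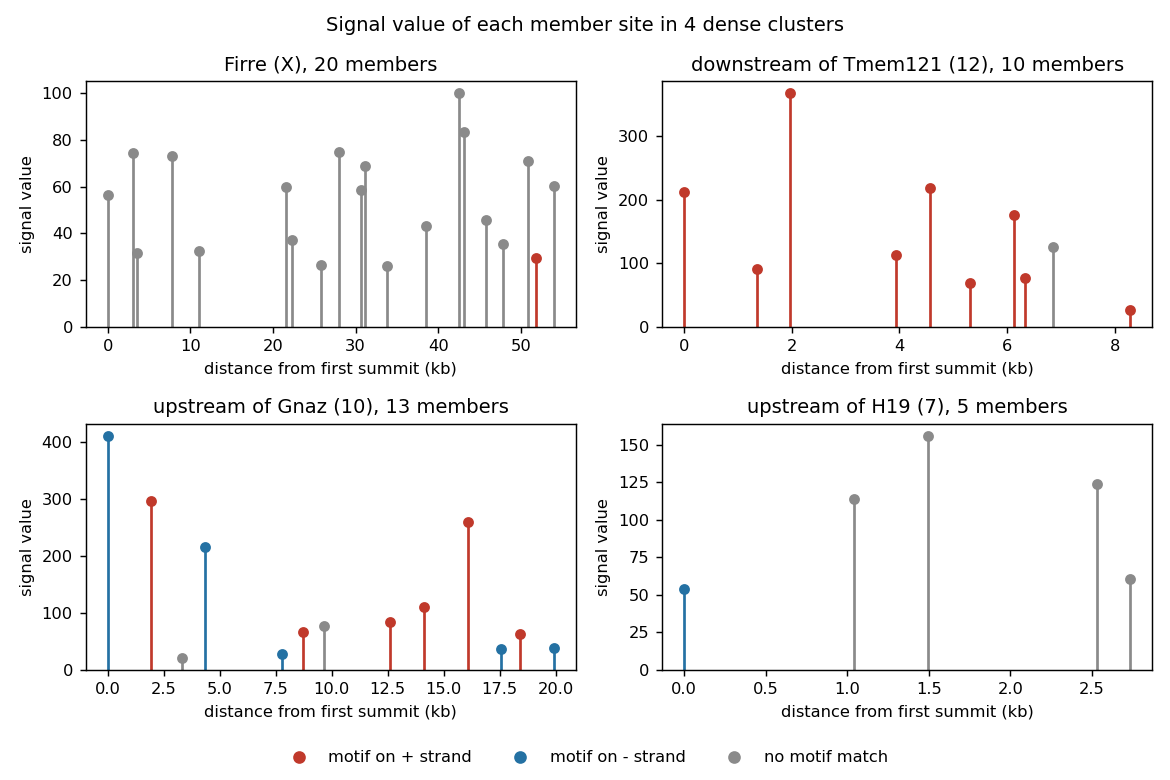
Signal value (y) of each member by distance from the first summit (x, kb) in 4 dense clusters, with motif matches on the plus strand in red, on the minus strand in blue and sites without a match in grey. The Firre members stay at or below 100.2 with 1 motif match, the array downstream of Tmem121 has 9 plus-strand matches, the cluster upstream of Gnaz has both strands, and 4 of the 5 H19 sites have no match.

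The array downstream of Tmem121 had 10 members within 8284 bp, and 9 of them carried a motif, all on the plus strand. From position 1 to 10 the signal values were 212, 91.2, 369, 113, 219, 68.6, 176, 76.1, 126 and 25.8. Position 3 was the strongest in both replicates, with 187 and 179.9, and position 10 the weakest, with 16.9 and 8.62. The strongest site did not have the closest core: position 3 had 2 mismatches, while positions 4 and 6, with perfect cores, had 113 and 68.6. Position 9 lacked a match, with 3 mismatches, and had a value of 126. None of the 10 members had a repeated copy by the word measure.

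At the kappa light-chain locus, 4 members lay between Igkv3-1 and Igkj1, in the interval known to hold the regulatory elements Cer and Sis. These were the only members within 10 kb of an antigen receptor gene, of 48 sites in all (8.33%; 3.29–19.6%). From the variable toward the joining segments their values were 112, 65.9, 64.1 and 211. Replicate 1 gave 68.5, 35.5, 30.9 and 114, and replicate 2 gave 43.9, 28.1, 31.8 and 96.6. The 2 sites next to Igkv3-1 matched on the minus strand and the 2 next to Igkj1 on the plus strand, a divergent arrangement. The 2 minus-strand sites had the same core and are shown for their similar flanks.
Igk site 1 (chr6:70709458-70709491): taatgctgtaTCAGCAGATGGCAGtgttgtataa
Igk site 2 (chr6:70709865-70709898): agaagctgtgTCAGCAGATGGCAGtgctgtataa

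Imprinted genes held 35 members among 128 sites within 10 kb (27.3%; 20.4–35.6%), with a median signal value of 116. At H19, all 5 sites within 10 kb were members, at 1131, 2174, 2629, 3664 and 3865 bp from the gene start. Their values were 53.6, 114, 156, 124 and 60.8. Replicate 1 gave 27.9, 64.7, 63.9, 76.5 and 25.6, and replicate 2 gave 25.6, 47.3, 91.7, 44.7 and 30.8. The 2 replicates ranked different sites first. The site nearest the gene, outside the sequences shown above, was the only one within the limit of 2 mismatches, and it had the lowest value. The cores of the others, with 3 or 4 mismatches, fell outside that limit. At Gnas, which makes the stimulatory G-protein alpha subunit and several imprinted transcripts, 6 of 9 sites were members and 5 carried a motif. The Gnas values were 57.5, 23.4, 95.6, 52.1, 245 and 225, so the 2 strongest were the last 2 of the 6 members along the gene. At Meg3, a maternally expressed noncoding RNA, 4 of 6 sites were members. Meg3 had a pair of strong intronic sites, with 134 and 213, flanked by weak ones of 23.1 and 18.8 without a motif.

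The cluster with most members outside Firre lay upstream of Gnaz, the gene of a G-protein alpha subunit found in neurons. It held 13 members over 19915 bp, between 26172 and 46087 bp from the Gnaz start. The Gnaz signal values ran from 21.5 to 410.3. The strongest, at the end farthest from the gene, had 210.3 in replicate 1 and 199 in replicate 2 and a perfect core. Of the 13 members 11 had a motif, 6 on the plus and 5 on the minus strand. The Gnaz positions 5, 12 and 13 had higher values in replicate 1 than in replicate 2 by 1.67, 1.59 and 1.49 on the log2 scale after centring, with values between 4.88 and 49.4.

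Next in size were 10 members over Fbxo6, Fbxo44 and Fbxo2, genes of F-box proteins that pick substrates for ubiquitin ligases. Values at the Fbxo2 cluster ran from 39.0 to 383, and the 3 members with a perfect core, all downstream of Fbxo2, had 128, 195 and 383. Clusters of 9 members lay at C030014I23Rik and the neighbouring Wnt cofactor gene Bcl9l, over Eef2 and Dapk3, at Atp5d, a subunit gene of the mitochondrial ATP synthase, and inside Fgfr2, a fibroblast growth factor receptor. The Atp5d cluster, which also reached into the neighbouring genes Cbarp and Midn, had 6 members at promoters of any coding gene, the most among these. The Eef2 cluster, named for the translation elongation factor, had its 2 strongest sites, 293 and 274, next to each other upstream of the gene and only 1 of them with a motif. The Fgfr2 members had all 4 motifs on the minus strand, with values from 5.84 to 272. Fgfr2 is annotated here from 130162451 to 133123350, with start sites inside that span. Along the cluster, the distance to the nearest annotated start fell to 1001 bp at position 5. It then rose to 7118 bp at position 9, the strongest. The Fgfr2 member at 5.84 had no summit within 150 bp in replicate 2 and the same replicate 1 value, 22.5, as its neighbour.

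Clusters with motifs on only 1 strand differed in how uniform their members were. At Ksr2 the 5 values were 168, 106, 529.6, 291 and 245, with replicate 1 at 94.2, 51.4, 284, 151 and 134 and replicate 2 at 74.7, 55.3, 251, 137 and 112. Position 3, with a perfect core, was the strongest in both. Inside Cdh4, a cell adhesion cadherin, 5 of 6 members carried a minus-strand motif. The Cdh4 values with a motif were 74.4, 281, 169, 350.2 and 138, and the site without a motif had the lowest value. The Slc37a1 cluster had 5 plus-strand motifs with values of 209, 63.5, 269, 48.3 and 74.7. Vgll4, a cofactor of TEAD transcription factors, held 8 members, of which 5 had a motif, all on the plus strand. At Gm21887 on the X chromosome, 7 members held 4 minus-strand motifs. The cores of 3 of these, at positions 4, 6 and 7, were identical, and their values were 109, 238 and 149.
Gm21887 position 4 (chrX:170020135-170020168): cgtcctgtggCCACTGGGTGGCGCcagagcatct
Gm21887 position 6 (chrX:170020833-170020866): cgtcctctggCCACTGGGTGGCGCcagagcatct
Gm21887 position 7 (chrX:170022275-170022308): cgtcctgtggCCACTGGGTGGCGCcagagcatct

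Some clusters were strong throughout. Ranked by their weakest member among clusters of at least 3, the first was Ap5b1, an adaptor complex gene, with 330.4, 303 and 304 over 1346 bp at its promoter and 3 minus-strand motifs. The clusters at Lrrc74a and Pfdn4 followed, with weakest members of 286 and 285. The cluster named by AC112949.1 had its strongest summit 49762 bp from the start of that gene, and lay 651 bp from the gene Capn13. It had 4 plus-strand motifs with 353, 384, 273 and 275. Their replicate 1 values were 181, 199, 144 and 148, and replicate 2 gave 173, 181, 126 and 129.6. The noncoding RNA gene D030034A15Rik held 3 plus-strand motifs over 1568 bp, with 311, 393 and 271.

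Some genes had several members at their start sites. Of 21938 protein-coding genes, 1196 had a member within 1000 bp of a TSS, 511 had at least 2 and 127 at least 3. Myc, the growth-regulating transcription factor, had 5 members, with signal values of 32.9, 17.8, 132, 131 and 20.9. Only the Myc site at 131, in an intron, carried a motif. Pde10a, a striatal phosphodiesterase, had 5 without any motif, in groups of 3 and 2 at separate start sites, with values from 24.4 to 117. Bdnf, the brain-derived neurotrophic factor gene with many alternative first exons, had 4, with 62.8, 16.9, 63.9 and 223. The strongest Bdnf site had 115 in replicate 1 and 109 in replicate 2 and a core with the 12 bases described above. Alcam, an axonal adhesion molecule, had 1 strong site of 437 with a motif beside 3 members of 34.1, 19.8 and 7.20 without. The Alcam member at 7.20 had no summit within 150 bp in either replicate list. The Bdnf member at 16.9 had none in replicate 1. Gabbr1, a GABA-B receptor subunit, had values of 20.9, 114, 163 and 30.9, with a motif at 163. Park7, Iffo2, Homez, Setd7 and Pdgfa also had 4 members each.

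**Figure D5:**
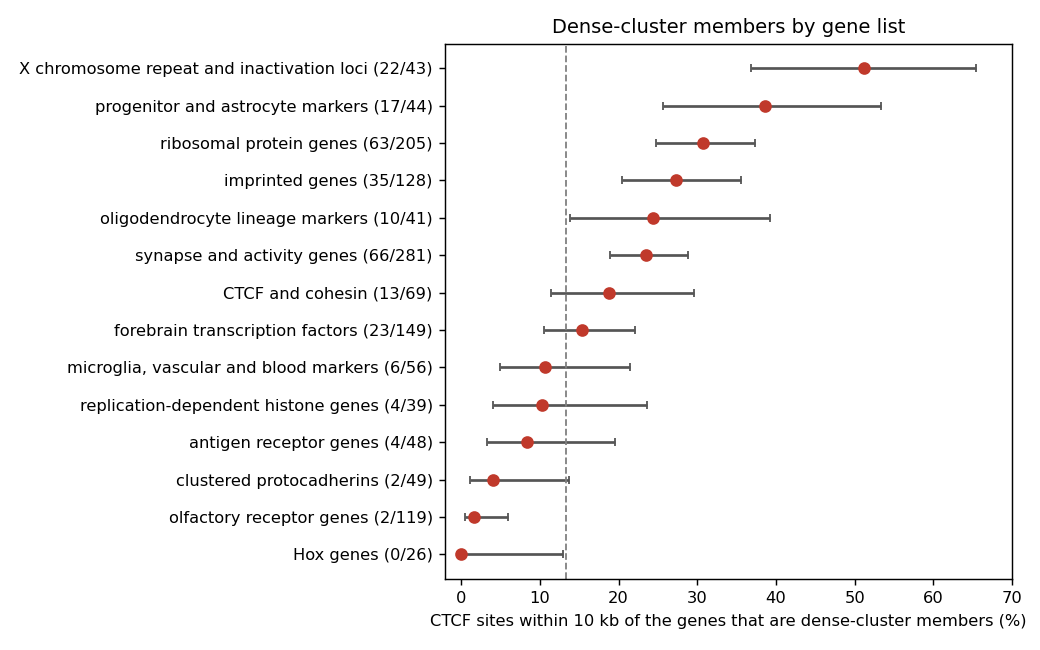
Share (%) of CTCF sites within 10 kb of the genes of each list that are dense-cluster members, with Wilson 95% intervals; counts of members and sites follow each name, and the dashed line marks 13.3%, the share over all sites. The lists range from 0 of 26 sites at Hox genes to 22 of 43 at X chromosome repeat and inactivation loci. The dashed line counts sites at any distance from a gene.

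Among gene families arranged in tandem, olfactory receptor genes had 2 members among 119 sites (1.68%; 0.462–5.92%), below the 13.3% over all sites. The clustered protocadherins, neuronal adhesion genes many of whose alternative promoters bind CTCF, had 2 of 49 (4.08%; 1.13–13.7%), with values of 46.8 and 84.0 and no motif match. Hox genes had none among 26 sites, which allows a share of up to 11.5% by the limit of 3 counts and 12.9% by the Wilson interval. Replication-dependent histone genes had 4 of 39 (10.3%; 4.06–23.6%). The intervals of the protocadherin, histone and antigen receptor lists include 13.3%, and that of the Hox list ends just under it. For every list, the 13.3% covers sites at any distance from a gene. No reference share for sites within 10 kb of any gene was computed. Genes at X-linked repeat and inactivation loci had 22 of 43 (51.2%; 36.8–65.4%), of which 20 were the Firre members.

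Lists of genes used in the forebrain spanned a range of shares. Progenitor and astrocyte markers had 17 members among 44 sites (38.6%; 25.7–53.4%), at 5 of 15 genes. Nes, the progenitor intermediate filament, had 4 members at the neighbouring gene Bcan, with 406 at the strongest and 53.2, 33.1 and 46.4 at the others. Vim, another intermediate filament, had 28.9, 185, 52.0 and 44.7, with a motif only at the last. Slc1a3, the astrocyte glutamate transporter, had 3 strong sites of 296, 274 and 238, all with motifs. Oligodendrocyte lineage markers had 10 of 41 (24.4%; 13.8–39.3%), with 6 at Pdgfra, the receptor that marks oligodendrocyte precursors. The Pdgfra values were 159, 41.8 and 24.6 upstream and 105, 218 and 279 in its introns. At Cspg4, the precursor proteoglycan NG2, 3 members had 359, 335 and 56.9.

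Synapse and activity genes had 66 members among 281 sites (23.5%; 18.9–28.8%). Shank1, a postsynaptic scaffold, had 9 of 11 sites as members, with values from 16.5 to 147 and 1 motif match. Its relative Shank2 had 8 of 30. Of these, 4 formed a chain with values of 191, 20.7, 258 and 152, all with motifs. A chain of 3 had 55.8, 71.9 and 25.9, and the remaining Shank2 member, at 83.2, was not chained to the others. Nrxn2, a presynaptic adhesion receptor, had 6, and the 5 with a motif were all on the plus strand. The Nrxn2 values were 20.6, 350.1 and 18.3 near the gene start and 428, 303 and 36.8 inside the gene. Forebrain transcription factors had 23 of 149 (15.4%; 10.5–22.1%), an interval that includes the 13.3% of all sites. Pou3f3 had 28.1, 242, 23.6 and 40.8, and Nr2f1 had 21.6, 246 and 119. At both, the strongest site carried the only motif. Cux1 had 23.1, 36.9, 47.7 and 114, and its strongest had a perfect core.

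Among genes active in most cells, ribosomal protein genes had 63 members among 205 sites (30.7%; 24.8–37.4%), at 23 of 79 genes. All 7 sites within 10 kb of Rps15 were members, with values of 45.2, 144, 26.9, 168, 104, 28.1 and 19.8. Rpl19 had 6 of 7, with 305 at the strongest, and Rpl23a had 5 of 7, with 407 at the strongest, which lay in Tlcd1. Genes of CTCF, cohesin and their partners had 13 of 69 (18.8%; 11.4–29.6%). Yy1, a looping factor, had 3 members without a motif, at 52.3, 31.3 and 28.4, and Nipbl, the cohesin loader, had 26.0, 153 and 39.4. Markers of microglia, vessels and blood had 6 of 56 (10.7%, interval 5.00–21.5%). There were 3 each within 10 kb of Cdh5, an endothelial cadherin, and Cx3cr1, a microglial chemokine receptor. The Cx3cr1 members lay at 119970361 to 119974809, in a gene annotated from 119901616 to 120069879 on the minus strand. Those with values of 69.5 and 38.9 also lay in an intron of Csrnp1. The intervals of the CTCF and blood-cell lists include 13.3%.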

How the data were processed

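Per the labels, CTCF ChIP-seq peak lists on mm10 were deposited for each of 2 replicates, for both together, and after IDR thresholding (an optimal and a conservative list). The authors' signal value is the caller's peak strength on an unstated scale. The deposited lists also hold −log10 of a q-value and, in the IDR lists, a score, neither of which was used. Aligner, peak caller and sequencing depth: not given in the sources used here. Every optimal-list peak was found in the joint list with the same interval and signal value, and no peak ended beyond its chromosome in the GRCm38 sequence used.

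Members, gene lists and regions were chosen with earlier results of these data known. Genes came from GENCODE M21 (basic). A summit within 1000 bp of a coding TSS was a promoter site; the rest were exonic, intronic or intergenic, with exons taking precedence. A replicate's value is that of its nearest summit within 150 bp; this was chosen after seeing that peaks overlap inside clusters, and summits under 300 bp apart can share one. Named were the 12 largest clusters, the 8 with the strongest weakest member (at least 3 members), the 7 of at least 4 members that hold repeated copies (the rule asked for 8), 6 with 4 or more motifs on 1 strand, the 10 genes with most promoter members, up to 3 genes per list and 4 sites on each side of the threshold; not all are described. The 6 were ranked by motif-bearing members; ranking by all members would replace Gm43372, Ksr2 and Slc37a1 with Fgfr2, Ppm1h and Gm21887. A cluster carries the gene that holds its strongest summit or has the nearest TSS. The antigen receptor list was limited to immunoglobulin and T-cell receptor gene types after its name pattern was seen to match other genes. The Igh assignment, the Igk sites as a group, the TGGCAGT run and the core forms were chosen after values were seen. No test was run, since there is 1 group. Code was checked on simulated data. Software was Python 3.11.15, pandas 2.3.3, numpy 2.4.6, pysam 0.24.0, samtools 1.23.1 and matplotlib 3.10.9.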

Additional observations from a re-analysis of the deposited data

How the results depend on the processing

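The members were defined by a fixed distance, so their number and location depend on it. Within 2.5 kb there were 2624 members, with a motif share of 56.7%, a median signal value of 63.6, a promoter share of 31.6% and a share of repeated copies of 0.191%. Within 10 kb there were 16177, with a motif share of 65.3%, 19.5% at promoters, 0.346% copies and a same-strand share of 55.4% (53.7–57.0%). The last of these and the 58.1% given next have intervals above that of the other pairs in the main comparison. Other pairs were not recomputed under either setting. With neighbours over 1000 bp apart the motif share was 65.0% and the promoter share 18.7%. In the stronger part of the list, split at its median, there were 1407 members, with a motif share of 80.3%, a median of 179, 13.2% at promoters and a same-strand share of 58.1% (53.7–62.3%). On the conservative list the median was 73.7. The motif share was 33.9% with at most 1 mismatch, 65.4% within 100 bp and 70.4% over 1 kb from a coding TSS, and other sites had 36.7%, 69.6% and 73.0%. The median signal value was 78.4 over 1 kb from a TSS and 111 with a motif, and other sites had 67.6 and 91.0. The promoter share was 15.1% within 500 bp, 36.1% within 2.5 kb, 18.6% with 1 TSS per gene and 26.1% with long noncoding RNA starts counted too (an alternative added after seeing the data), and other sites had 12.1%, 20.4%, 13.7% and 17.6%. Sharing 50% of 16-base words left 0.0267% of members as copies. With 1 replicate's list alone, cut to the length of the optimal list, the number of members ran from 7439 to 7642, the motif share from 61.3% to 62.3%, the median signal value from 31.7 to 36.9, the promoter share from 22.7% to 23.8%, the same-strand share from 54.8% to 55.0% and the copies from 0.471% to 0.524%. The other alternatives kept the shares within their main intervals, the number of members within 1.5 times its main value and the median within 1 SD of the replicate medians. No paired analysis was possible because there is 1 group. The depth of sequencing is not stated, so no limit can be given for weak sites missing from the list.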
